A study of Mus musculus with 4 samples.

Results

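CpG-dense tiles that were nearly free of methylation, and that did not lie in a broad unmethylated valley, were followed across the 4 whole-genome bisulfite libraries of E11.5 mouse embryonic brain. A tile is a 1 kb stretch of an autosome. It was a member when the 4 libraries together listed at least 40 CpGs in it, at least 3 of these CpGs had at least 5 reads in every library, and its methylation level was under 10% in WT 3 ppm. Tiles in a run of 4 or more adjacent tiles under 15% in WT 3 ppm were left out as broad valleys. The members were thus selected on measured levels of 1 library, and their low level in WT 3 ppm is what chose them and not a result. The rule kept 7894 of 1863069 scored tiles. Of 18320 tiles with 40 or more listed CpGs, 15574 could be scored, 9295 of these were under 10% in WT 3 ppm, and 1401 of the 9295 lay in valleys.

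Each library was made from the brain of 1 male embryo of the strain labelled 129S6.cg Tet1<tm1Koh>, and the 4 groups are KO 30 ppm, WT 30 ppm, KO 3 ppm and WT 3 ppm. KO embryos were homozygous for the tm1Koh allele, a knock-in that interrupts Tet1 where its coding sequence begins, while WT embryos carried 2 intact alleles. The number gives the folic acid of the mother's diet, 30 ppm for excess and 3 ppm for control, and per the study's methods the diets also held succinylsulfathiazole, which suppresses folate-producing gut bacteria. With 1 embryo per group no value has an SD, and a test between 2 libraries compares those libraries and not the conditions. Embryos with the same numbers appear among the study's RRBS samples (reduced representation bisulfite sequencing), where the KO pair is marked as having neural tube defects and the WT pair as normal, and all 4 numbers belong to different litters. Genotype, phenotype and litter therefore cannot be told apart here, and neither can diet and litter.

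Most vertebrate DNA is methylated at CpGs, and the methylated cytosines have been lost to deamination over evolution, so that CpGs are sparse. CpG islands, which cover many gene starts, are the exception: they stay unmethylated in the germline and in most tissues and keep their CpGs. TET1 is a dioxygenase with a CXXC domain that binds unmethylated CpGs, and it oxidises 5-methylcytosine, the first step of active demethylation. Broad unmethylated valleys typically hold developmental transcription factor genes under Polycomb control. The members studied here are the shorter, island-like stretches.

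Sequences of 4 members are printed from GRCm38 (plus strand, 5′ to 3′, CpGs in capitals) to show what such a tile looks like where the KO gain was large and at ribosomal protein genes, chosen for their number of CpGs. Each is the 300 bases with most CpGs in the tile that hold no annotated UTR. The first 2 come from tiles with a large KO gain at 30 ppm: Cck at chr9:121494223-121494522 (coding exon and intron of the cholecystokinin gene, which lies on the minus strand) and H2-Q6 at chr17:35425001-35425300 (coding exon and intron of an MHC class I gene, plus strand). The last 2 come from the cytosolic ribosomal protein tiles with most CpGs: Rps20 at chr4:3835171-3835470 (coding exon and intron, minus strand) and Rps19 at chr7:24884057-24884356 (before the first annotated start).
Cck: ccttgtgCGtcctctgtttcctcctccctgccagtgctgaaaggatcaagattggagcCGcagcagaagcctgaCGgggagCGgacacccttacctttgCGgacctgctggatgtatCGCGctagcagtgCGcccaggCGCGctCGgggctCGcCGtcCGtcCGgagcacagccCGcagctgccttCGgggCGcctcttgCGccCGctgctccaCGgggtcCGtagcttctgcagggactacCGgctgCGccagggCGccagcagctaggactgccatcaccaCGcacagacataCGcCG
H2-Q6: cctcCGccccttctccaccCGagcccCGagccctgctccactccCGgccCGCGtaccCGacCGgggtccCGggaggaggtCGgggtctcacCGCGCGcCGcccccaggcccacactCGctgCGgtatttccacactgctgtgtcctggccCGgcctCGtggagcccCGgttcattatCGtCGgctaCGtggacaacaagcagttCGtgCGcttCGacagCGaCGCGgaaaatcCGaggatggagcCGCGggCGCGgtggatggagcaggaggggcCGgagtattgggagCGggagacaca
Rps20: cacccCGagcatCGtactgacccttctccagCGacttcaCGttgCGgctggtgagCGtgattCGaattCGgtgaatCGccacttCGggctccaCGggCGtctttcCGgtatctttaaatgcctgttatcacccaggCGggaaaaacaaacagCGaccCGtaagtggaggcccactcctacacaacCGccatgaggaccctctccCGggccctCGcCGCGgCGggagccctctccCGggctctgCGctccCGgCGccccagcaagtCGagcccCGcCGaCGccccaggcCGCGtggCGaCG
Rps19: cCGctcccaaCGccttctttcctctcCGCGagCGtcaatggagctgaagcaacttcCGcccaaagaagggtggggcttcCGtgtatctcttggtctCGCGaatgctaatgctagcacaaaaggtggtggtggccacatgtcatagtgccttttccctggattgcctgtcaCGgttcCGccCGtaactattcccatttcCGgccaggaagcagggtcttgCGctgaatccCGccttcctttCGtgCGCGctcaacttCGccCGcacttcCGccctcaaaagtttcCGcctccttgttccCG

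The Cck and H2-Q6 stretches hold 28 and 35 CpGs, and those of Rps20 and Rps19 hold 34 and 23. Over every listed CpG of the Cck stretch, 21.1% of 133 reads were methylated in KO 30 ppm, 0.971% of 103 in WT 30 ppm, 26.7% of 434 in KO 3 ppm and 1.37% of 293 in WT 3 ppm. The H2-Q6 stretch had 42.3% of 381 reads, 2.41% of 374, 32.8% of 752 and 6.32% of 427 in the same order. At these genes both KO libraries were high and both WT libraries low. The Rps20 stretch stood at 1.198%, 0.781%, 2.55% and 1.54%, and the Rps19 stretch at 1.10%, 1.91%, 1.53% and 2.11%. At the ribosomal genes all 4 libraries were low, and KO was not above WT at 30 ppm in the Rps19 stretch.

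Depth in the members was below the autosomal mean in every library. The libraries averaged 13.2, 14.3, 21.2 and 16.2 reads per listed autosomal CpG (KO 30, WT 30, KO 3 and WT 3 ppm). Over all CpGs listed in members, counting a CpG that a library does not list as 0, the mean depth was 0.389, 0.313, 0.438 and 0.438 of the autosomal mean. Of the CpGs listed in members 24.4% reached 5 reads in all 4 libraries, against 78.6% over the autosomes. A median member had 62 listed CpGs, of which 14 were scored, with 123, 129, 201 and 155 reads. A read counts once at each CpG it covers, so the reads of a tile are not independent, and intervals and p-values, which treat them as independent, can be too narrow. Mitochondrial CpGs, taken as a background for incomplete conversion, were methylated at 0.914% to 0.938% of reads.

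The members were more methylated in both KO libraries than in either WT library. The median level was 4.00% in KO 30 ppm, 2.15% in WT 30 ppm, 3.92% in KO 3 ppm and 2.13% in WT 3 ppm, the last by selection. Summed over all members, 6.31% of reads were methylated in KO 30 ppm, 3.36% in WT 30 ppm, 6.36% in KO 3 ppm and 3.13% in WT 3 ppm. More members passed each level in KO: 3454 (43.8%) stood at 5% or more in KO 30 ppm and 1796 (22.8%) in WT 30 ppm, while 1834 members (23.2%) stood at 10% or more in KO 30 ppm, 1827 (23.1%) in KO 3 ppm and 440 (5.57%) in WT 30 ppm. A level of 20% or more was reached by 502, 495 and 25 members. No methylated read at all was seen in 12.5% of members in KO 30 ppm, 17.0% in WT 30 ppm, 7.83% in KO 3 ppm and 14.99% in WT 3 ppm, the deepest library having the smallest share.

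**Figure D1:**
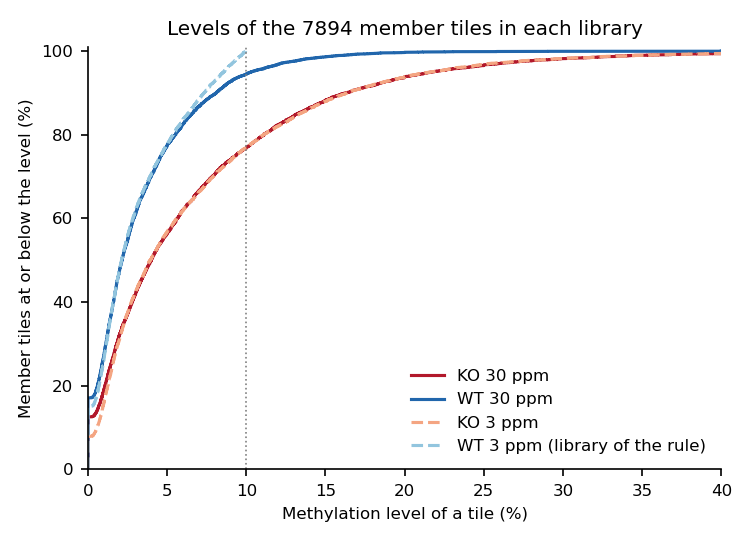
Share of the 7894 member tiles (y axis, percent) at or below a given methylation level (x axis, percent, shown to 40%) in each library, with the 10% limit of the rule dotted. At 10% the 2 KO curves lie close together and to the right of both WT curves, with 23.2% and 23.1% of members at 10% or more against 5.57% in WT 30 ppm, while at 0 they lie apart, at 12.5% in KO 30 ppm and 7.83% in KO 3 ppm.

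KO and WT at 30 ppm, whose levels the rule did not use although their coverage entered it, address what loss of Tet1 goes with in these tiles under excess folic acid. KO exceeded WT in 5573 members (70.6%) and fell short of it in 1822 (23.1%). Over all scored tiles the shares were 59.3% and 40.3%. Over all 22136 scored tiles with a protein-coding start they were 70.8% and 26.9%. In the members the median difference was 1.65 points and the mean 3.34, with quartiles of 0 and 5.06 points. The median was above 0 on 19 of 19 autosomes, between 1.04 and 1.89 points. Over all scored tiles the median difference was 1.23 points. With a minimum difference of 10 points and an adjusted p under 0.05 (Fisher's exact test on the reads of each tile, two-sided, Benjamini-Hochberg over all scored tiles), 317 members (4.02%) were called higher in KO, where 1.13% of all scored tiles were. A single member was called lower (0.0127% against 0.0487%). With no minimum difference 409 members were higher (5.18% against 1.18% of all tiles) and 1 was lower (background 0.0556%).

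The share called depended on reads per tile. With under 50 reads in the shallower 30 ppm library, 1.12% of 1514 members and 0.169% of all such tiles were called, and with 50 to under 100 reads 3.54% of 1923 and 0.466%. With 100 to under 200 reads in the shallower 30 ppm library, 5.57% of 2677 members and 1.66% of all such tiles were called. With 200 reads or more, the shares were 4.66% of 1780 members and 4.61% of all such tiles, so that in deep tiles the members' share was close to the background. The calls also depended on how many CpGs were counted. With CpGs at least 200 bp apart, 3377 members could be scored and 1 was called, beside 140 of 1132317 tiles in all, while the median difference of those members was 2.28 points. When every listed CpG of each library entered, the members' median difference was 0.916 points, below the 1.198 of all tiles, and 307 members were called higher (3.89%, against 1.48% of all tiles).

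**Figure D2:**
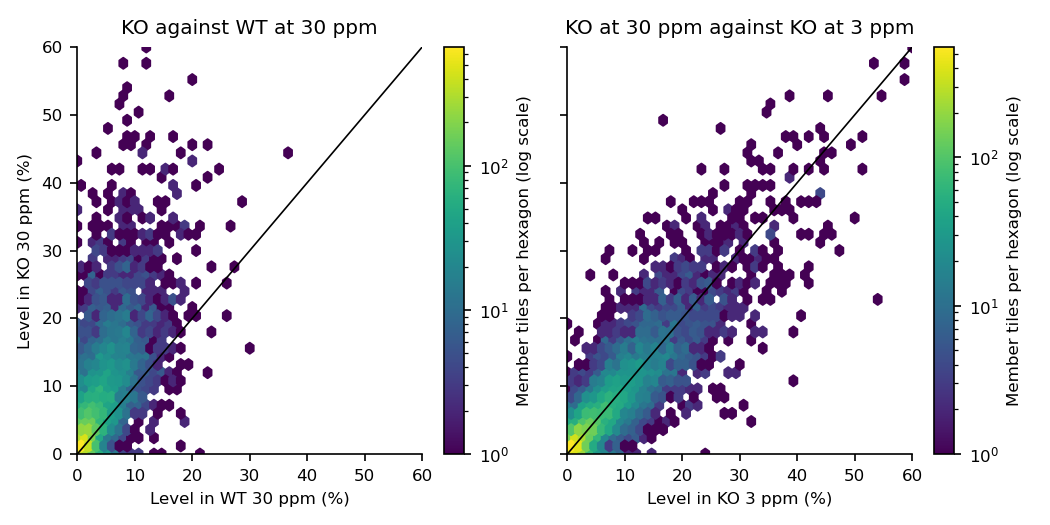
Each panel counts member tiles (colour, log scale) by their level in KO 30 ppm (y axis, percent) and in WT 30 ppm (left) or KO 3 ppm (right), both x axes in percent, with the line of equal levels; axes end at 60%, which 6 members reached or passed in KO 30 ppm. Members spread above the line against WT 30 ppm, where 70.6% were higher in KO, and lie on both sides of it against KO 3 ppm. Of all scored tiles 59.3% were higher in KO at 30 ppm, and of those with a protein-coding start 70.8%.

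The 317 called members stood high in the other KO library too, whose levels neither the rule nor the call had used. Their median level was 23.4% in KO 30 ppm, 4.81% in WT 30 ppm, 20% in KO 3 ppm and 6.02% in WT 3 ppm. In KO 3 ppm 290 of them (91.5%) were at 10% or more, against 1537 of the other 7577 members (20.3%). The other members also had lower WT levels, with medians of 2.06% in WT 30 ppm and 2.03% in WT 3 ppm. Of all members at 5 to under 10% in WT 3 ppm, called or not, 65.0% were at 10% or more in KO 3 ppm. The KO 3 ppm levels of the 317 ranged from 1.40% to 80.5%.

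Diet within the KO genotype, asked with KO 30 ppm and KO 3 ppm, gave few calls. These embryos were also of different litters. The median difference was 0 points in the members and 0.758 points over all scored tiles. Of the members 4 were called higher at 30 ppm (0.0507%, background 0.043%) and 1 lower (0.0127%, background 0.0253%), shares near the background. With no minimum difference the counts were 6 and 2 (backgrounds 0.0468% and 0.0277%). With the minimum of 10 points a lower call needed 10% or more in KO 3 ppm, which 1827 members (23.1%) reached, against 99.3% of all tiles. No member was called in either direction with at least 10 reads per CpG, with CpGs at least 200 bp apart or after thinning each scored CpG to the lowest of its 4 read counts. When every listed CpG of each library entered, 31 members were called higher (0.393%, against 0.156% of all tiles) and 23 lower (0.291% against 0.0861%), so that under this setting both shares were above the background.

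The 5 called tiles are named because they are few, and the choice of Nt5c, H2-T23 and B3gnt3 was made after their values were seen. The Bcl2 tile (chr1:106713001-106714000), which holds the start of the gene for the anti-apoptotic protein BCL2, was at 26.2% in KO 30 ppm, 4.89% in WT 30 ppm, 12.7% in KO 3 ppm and 7.59% in WT 3 ppm (adjusted p of the diet difference 0.0118, Fisher's exact test). The tile of Gpalpp1 and Nufip1 (chr14:76110001-76111000), genes that start there on opposite strands, was at 26.0%, 11.6%, 15.98% and 8.36% (adjusted p = 0.0222, Fisher's exact test). The start tile of Nt5c, a 5′-nucleotidase gene, was at 49.3%, 8.73%, 16.8% and 8.63%, with 69 reads in KO 30 ppm. In these 3 tiles KO 30 ppm was the highest library and KO 3 ppm the next. The tile of H2-T23, an MHC class I gene (chr17:36032001-36033000), was at 25.9% in KO 30 ppm and at 2.80%, 3.64% and 4.45% in the others, so that only KO 30 ppm stood apart. The B3gnt3 tile (an exon, chr8:71692001-71693000; a glycosyltransferase gene) went the other way, at 18.6% in KO 30 ppm, 11.2% in WT 30 ppm, 39.1% in KO 3 ppm and 8.59% in WT 3 ppm. Class I genes resemble each other and differ between mouse strains, and reads were aligned to the C57BL/6 reference, so the H2-T23 and H2-Q6 values are uncertain.

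KO against WT at 3 ppm, and the WT diet pair, share the library that chose the members and are given as a description. At 3 ppm the median difference was 1.76 points, 508 members were called higher in KO (6.44%, background 1.1%) and 0 lower (background 0.114%). In WT, 3 were called higher at 30 ppm (background 0.00886%) and 0 lower (background 0.0381%). Both counts of 0 were fixed by the rule. A lower call needed 10% or more in WT 3 ppm, and every member was under 10% there. These counts therefore cannot be compared with the background. Choosing the tiles in WT 30 ppm in place of WT 3 ppm gave 7864 members, 7370 of them shared (93.4% and 93.7% of the lists). With these, KO against WT at 3 ppm uses levels of no library that chose the tiles: 420 tiles were called higher in KO (5.34%), 0 lower, and the median difference was 1.67 points. The 7370 shared tiles were under 10% in WT 3 ppm, so that none of them could be called lower.

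Most members are gene starts. A start of a protein-coding gene lay in 5318 members (67.4%), the starts of 5729 genes in all, and a start of another transcript in a further 320. Exons without a start made up 1300 members, introns 568 and intergenic tiles 388. Among valley tiles that passed the same limits on CpG number and level, with a median of 54 listed CpGs against 62, 27.4% held a protein-coding start. The members had a median GC content of 60% and an observed over expected CpG ratio of 0.75, and only 3 of them were soft-masked in the reference over at least 50% of their bases.

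The share called was higher in exonic members than at gene starts, a difference that was not tested. Exons without a start had median levels of 5.51% in KO 30 ppm, 2.58% in WT 30 ppm and 5.40% in KO 3 ppm, and 81 of them (6.23%) were called higher in KO at 30 ppm. Gene starts were at 3.64%, 2.02% and 3.62%, with 178 called (3.35%), below the 5.81% called among all 22136 scored tiles with a protein-coding start. Of introns 29 were called (5.11%), of intergenic members 16 (4.12%) and of other transcript starts 13 (4.06%). Starts on both strands, the arrangement of a bidirectional promoter, had the smaller difference: the 570 such tiles had a median difference of 0.99 points with 11 called (1.93%), and the 4748 with starts on 1 strand had 1.46 points with 167 called (3.52%).

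The excess of KO over WT at 30 ppm, as a median over tiles, was smaller at higher CpG number, falling by bin from 2.38 through 1.89, 1.45 and 1.10 to 0.503 points, and in longer unmethylated runs, at 1.95, 1.41 and 0.871 points for runs of 1, 2 and 3 tiles. Members with 40 to under 50 listed CpGs had medians of 6.03% in KO 30 ppm and 3.14% in WT 30 ppm, and 5.97% of 1859 were called higher in KO. With 100 or more CpGs the medians were 1.73% and 1.23%, and 2.04% of 489 were called. Single tiles, whose neighbours were both at 15% or more or not scored, had medians of 4.76% and 2.51%. Members of a run of 2 had 3.38% and 1.98%, and those of a run of 3 had 2.26% and 1.44%. Valley tiles with 40 or more listed CpGs, beyond the members, had 1.83% and 1.39%, and 0.999% of the 1401 were called. Dense tiles from 10% to under 70% in WT 3 ppm lay at the other side, with medians of 35.5% and 24.2% and 16.8% of 4671 called.

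**Figure D3:**
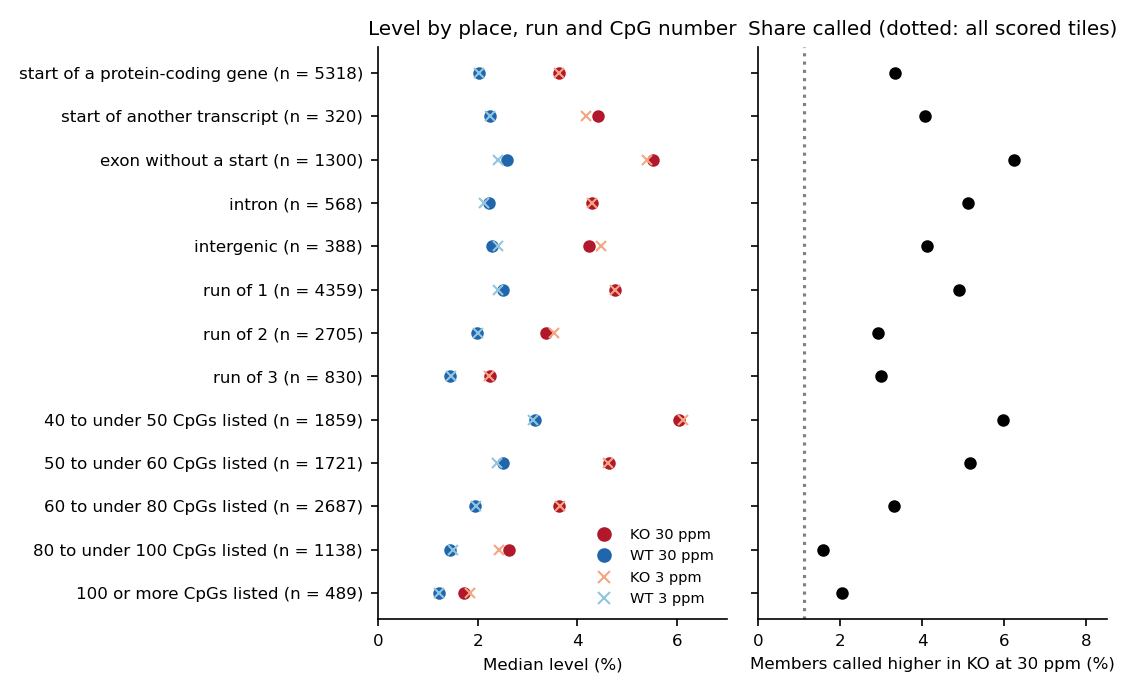
Left, the median level (x axis, percent) of members split by place, length of the unmethylated run in tiles and number of listed CpGs, in each library; right, the share of members called higher in KO at 30 ppm (x axis, percent), with the 1.13% of all scored tiles dotted. Every split lies above the dotted line, and levels in KO fall from 6.03% at 40 to under 50 CpGs to 1.73% at 100 or more.

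Across the level that chose the members, KO minus WT at 30 ppm was larger nearer to the limit. Members at 5 to under 10% in WT 3 ppm rose from 6.64% in WT 30 ppm to 12.5% in KO 30 ppm at the median, and 190 of 1767 were called (10.8%). Members under 1% in WT 3 ppm had medians of 1.05% and 1.62%, and 6 of 2058 were called (0.292%), a share below the 1.13% of all tiles. The tiles just inside the limit, in Slc35b4, Zfhx2 and Pex5l, had 9.96%, 9.95% and 9.94% in WT 3 ppm, and the tiles just outside it, in Dner, Socs1 and Cox6a1, had 10% each. Inside, KO 30 ppm and WT 30 ppm were at 22.4% and 17.1%, 11.3% and 7.47%, and 17.0% and 6.80%. Outside, they were at 16.7% and 0% (24 and 25 reads), 21.0% and 12.3%, and 17.3% and 8.77%.

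In points, the difference was larger at the margins of the members than at their centres, and larger still in the DNA beside them. As a multiple of the WT level it was not larger there. In the 250 bp on one side of the centre KO 30 ppm was at 3.81% and WT 30 ppm at 1.94%. At 750 to 1000 bp on that side they were at 41.4% and 33.5%. Around the centre of a member tile the WT 30 ppm level was 1.94% within 250 bp on either side. It rose to 79.5% on one side and 79.9% on the other at 4750 to 5000 bp. KO minus WT at 30 ppm was 1.87 and 1.73 points in the 2 central bins of 250 bp. In the outer bins of the tile, 250 to 500 bp from the centre, it was 4.25 and 3.94 points. It was largest outside the tile, at 750 to 1000 bp from the centre, 7.93 points on one side and 8.01 on the other, and 2.46 to 3.29 points at the far ends. The same bins differed by -0.09 to 0.92 points between the diets in KO. The tiles next to a member's run, of which 12370 were scored, had median levels of 65.7% in KO 30 ppm and 54.8% in WT 30 ppm, a median difference of 7.77 points, and 1545 of them (12.5%) were called higher in KO.

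Within single-tile members the same slope was seen over shorter distances. In the outer 100 bp of 3499 such tiles with both neighbours scored, 12.3% of reads were methylated in KO 30 ppm, 6.96% in WT 30 ppm, 12.1% in KO 3 ppm and 6.43% in WT 3 ppm. At 400 to 500 bp from the edge the levels were 2.97%, 1.59%, 3.00% and 1.45%. KO minus WT at 30 ppm fell from 5.38 points at the edge through 4.11, 2.88 and 1.88 to 1.38 points in the middle.

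Members with a single annotated protein-coding start, 2734 tiles, allowed the direction of transcription to be read. From 250 bp upstream to 250 bp downstream of the start KO exceeded WT at 30 ppm by 1.23 points in both bins. The gain was 7.90 points at its upstream maximum, 1000 to 750 bp before the start, and 10.1 points at its downstream maximum, 1000 to 1250 bp after it. Downstream of the start the WT level stayed low for longer, 7.72% at 500 to 750 bp against 25.8% at the same distance upstream, and KO there was at 13.3% and 32.9%. At 3 ppm the KO excess at the same maxima was 6.69 and 8.54 points.

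**Figure D4:**
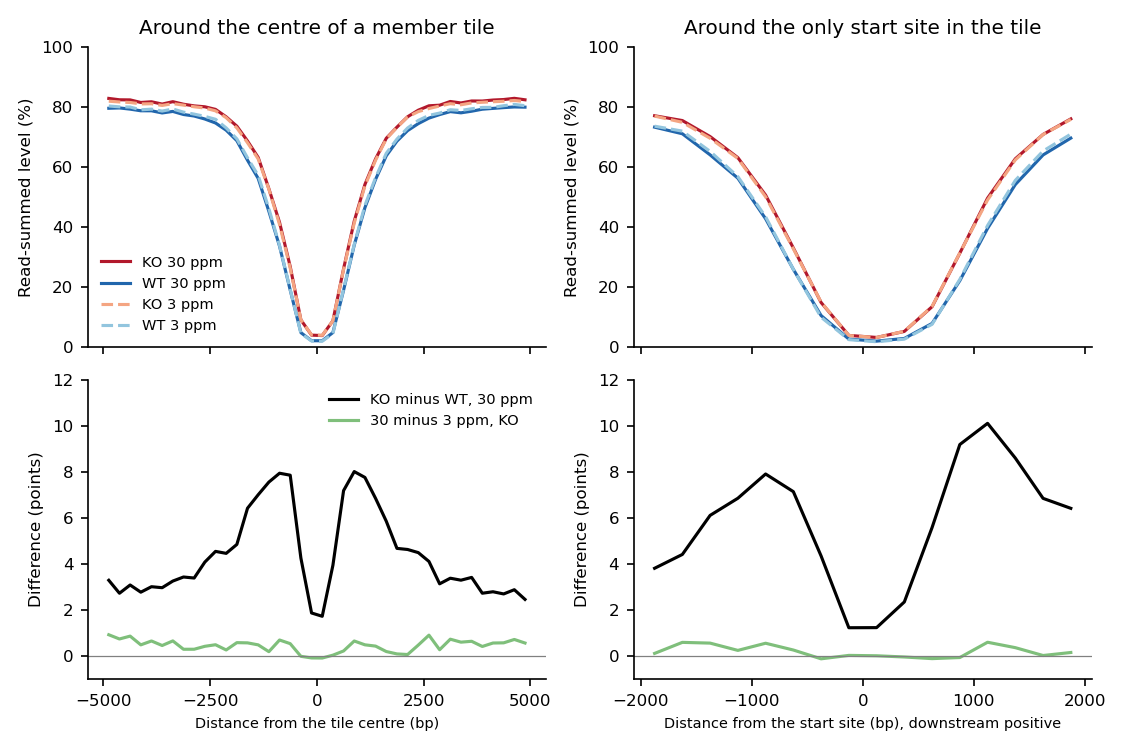
Top, the read-summed methylation level (y axis, percent) in bins of 250 bp around the centre of a member tile (left) and around the start site of the 2734 members with 1 start (right; downstream positive, distance in bp on the x axes), 1 line per library; bottom, KO minus WT at 30 ppm and 30 minus 3 ppm in KO, in points. The genotype difference is smallest near the centre (1.73 points) and beside the start (1.23 points), and reaches 8.01 points outside the tile, 750 to 1000 bp from its centre, and 10.1 points downstream of starts, while the diet difference stays between -0.12 and 0.92 points.

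Of the 15 members with the largest gain at 30 ppm, among those with at least 200 reads in every library, 14 are described: 6 gene starts, 5 exonic tiles, 2 intronic tiles and 1 intergenic tile. The Cck tile (chr9:121494001-121495000) holds the start of the gene for cholecystokinin, a neuropeptide, and was at 53.5% (95% Wilson interval 47.6 to 59.4) in KO 30 ppm, 9.06% (6.42 to 12.6) in WT 30 ppm, 54.6% in KO 3 ppm and 7.65% in WT 3 ppm. The difference at 30 ppm was 44.5 points (adjusted p = 2.21e-29, Fisher's exact test). Its neighbours were higher in KO as well, at 69.9% and 74.2% against 30.1% and 43.2% in WT 30 ppm. The Pde10a tile (chr17:8525001-8526000) holds the start of a phosphodiesterase gene best known from striatal neurons and was at 36.0%, 4.72%, 36.7% and 4.30% in the same order of libraries. Samd13 (start, chr3:146685001-146686000) was at 37.4%, 6.82%, 38.2% and 7.43%. In all 3 starts the KO libraries lay close to each other and far above both WT libraries.

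Other gene starts in this group were those of Atp6v0d1, a subunit of the vacuolar proton pump, in a tile that also overlaps Agrp (28.1%, 6.79%, 25.5% and 9.70%), and of Cyp27a1, a sterol hydroxylase (27.0%, 6.07%, 19.6% and 4.07%). Bcl2 was the third and is given above. Exonic tiles made up a further 5. The H2-Q6 tile (chr17:35425001-35426000) was at 45.8%, 8.36%, 39.9% and 9.26%, over 706 to 1656 reads. The tile in Ncan, which encodes the brain matrix proteoglycan neurocan (chr8:70112001-70113000), was at 35.7%, 7.72%, 31.3% and 7.69%. In both of these exons the lower KO library was more than 3 times the higher WT library.

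The Tmod2 tile (chr9:75610001-75611000), in an exon of the gene for a neuronal actin-capping protein, was at 29.9%, 3.45%, 23.0% and 7.54%. The Fzd1 tile (chr5:4756001-4757000), in the coding exon of a Wnt receptor gene, was at 30.7%, 4.45%, 26.9% and 8.05%. One of its neighbouring tiles was at 0% in KO 30 ppm and the other at 75.7% against 26.2% in WT 30 ppm, so the gain sat at 1 side of the unmethylated run. The tile shared by Mst1 and Rnf123 was at 37.3%, 9.72%, 43.8% and 9.09%. The remaining 3 were intronic in Ak8, an adenylate kinase gene (33.1%, 4.17%, 25.9% and 2.00%), intronic in Gm20388, and intergenic, 20612 bp from Cacna2d2. Over the 14 tiles KO 30 ppm ranged from 26.2% to 53.5% and WT 30 ppm from 3.45% to 12.7%, without overlap, as their choice fixed.

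**Figure D5:**
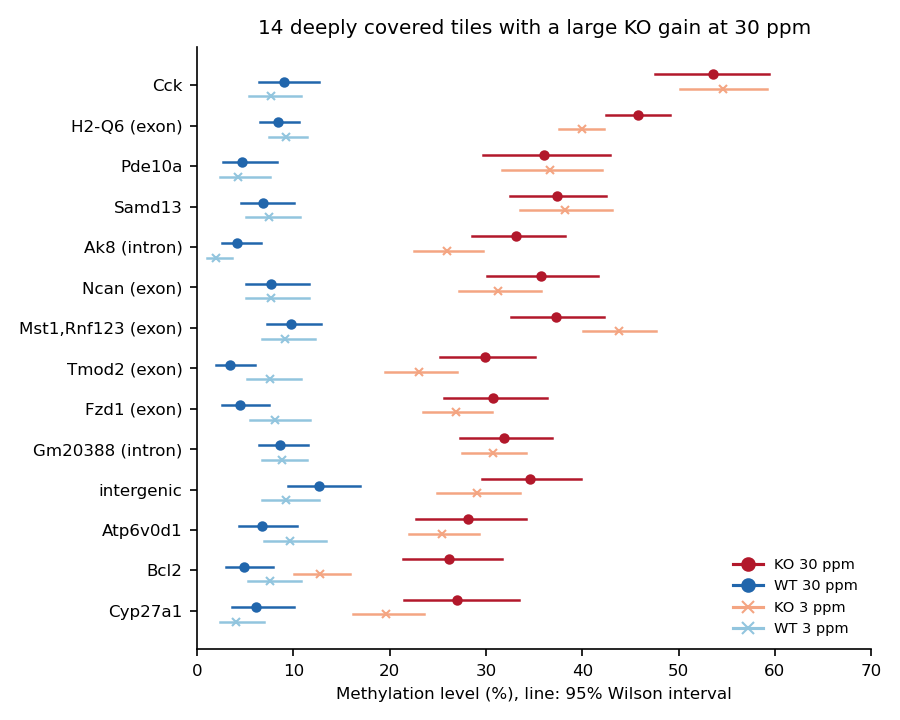
Levels (x axis, percent) with 95% Wilson intervals (lines, counting error only) of 14 of the 15 members with the largest KO gain at 30 ppm and at least 200 reads in every library, 1 row per tile and 1 marker per library. Both KO markers lie to the right of both WT markers in each row, with Cck at 53.5% and 54.6% against 9.06% and 7.65%, and Bcl2 at 26.2% and 12.7%.

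The single member called lower in KO at 30 ppm, named after its values were seen, holds the starts of Ddx51 and Noc4l, genes of ribosome assembly (chr5:110653001-110654000). It was at 0.585% of 171 reads in KO 30 ppm, 18.3% of 93 in WT 30 ppm, 0% of 163 in KO 3 ppm and 0% of 148 in WT 3 ppm (adjusted p = 5.23e-05, Fisher's exact test). Only WT 30 ppm stood apart.

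The gene lists are given with housekeeping genes first, and the lists were not tested against each other. A count below is of member tiles with the start of a listed gene, and the background is the 1.13% of all tiles. With no minimum difference 5.18% of members and 1.18% of all tiles passed. None of 56 tiles of cytosolic ribosomal protein genes was called higher in KO at 30 ppm, with median levels of 2.45% in KO 30 ppm and 1.52% in WT 30 ppm and a median difference of 0.44 points. With no minimum difference 3 more tiles of these lists passed Fisher's exact test, Rpl17 (10.9% against 3.08%, adjusted p = 0.0340), the mitochondrial ribosomal protein gene Mrpl39 (5.54% against 1.16%, adjusted p = 0.0478) and the proteasome gene Psmc1 (11.5% against 3.20%, adjusted p = 0.00107). None of 38 mitochondrial ribosomal protein tiles (median difference 1.67 points) and none of 45 tiles of oxidative phosphorylation genes (0.58 points) was called. Of 16 tiles in the proteasome list, which by its name pattern also took in Psmc3ip, a recombination gene, 1 was called (6.25%), that of Psmb9, an interferon-inducible subunit encoded in the MHC region (16.03% against 2.96%). Of 25 tiles of DNA replication and cell cycle genes 1 was called (4%), the proliferation marker Mki67 (25% against 7.98%), and the list's median difference was 0.44 points. Genes of this paragraph and the next with under 200 reads in a library were named after their values were seen.

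Receptor, channel and transporter genes are described next, beside the 3.35% called among all members with a protein-coding start and the 5.81% among all scored tiles with one. Of 10 tiles in the list of glutamate and GABA receptor genes 4 were called higher in KO at 30 ppm, 3 of them of receptor subunits, and the list had median levels of 12.5% in KO 30 ppm, 2.28% in WT 30 ppm, 7.07% in KO 3 ppm and 2.29% in WT 3 ppm. The called tiles were those of the NMDA receptor subunits Grin2a (26.7%, 6.54%, 20% and 6.36%) and Grin2c (29.6%, 3.23%, 32.5% and 6.82%), of the kainate receptor subunit Grik2 (15%, 0%, 4.47% and 2.30%) and of Grid2ip, which encodes an interactor of a delta-type receptor and is not itself a receptor gene (44.0%, 17.9%, 37.3% and 9.42%). The 4 rest on 80 to 172 reads in KO 30 ppm. Of 26 tiles in the list of potassium channel genes 2 were called, the channel Kcnj6 (16.5% against 4.50%) and Kcnip4, which encodes a channel-interacting protein (42.2% against 16.2%), with a median difference of 4.24 points. Of 99 solute carrier tiles 7 were called, among them Slc6a3, the dopamine transporter (28.4% against 2.35%), Slc13a5, a citrate transporter (21.1% against 4.48%), and Slc47a2 (32.5% against 6.25%), and the median difference was 2.64 points. The 8 tiles of neuronal differentiation genes had a median difference of 3.62 points and 0 called, with Tubb3 at 26.7% against 2.50% over 30 and 40 reads (adjusted p = 0.153, Fisher's exact test).

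Homeobox genes more often had their start in a valley than in a member. Of 164 autosomal homeobox genes 17 had a start in a member and 75 in a dense valley tile. Of the 17 tiles Hoxd1 was called (25.9% against 3.33%), and the median difference was 0.88 points. None was called among 8 tiles of neural progenitor genes (0.11 points), 16 of Wnt ligands, receptors and secreted antagonists (1.74 points), 29 of axon guidance genes (0.77 points) and 24 of neural tube closure and planar polarity genes (0.43 points). With so few tiles 0 called says little. In this order 0, 6, 5 and 4 tiles stood at 10% or more in KO 30 ppm, and 0, 1, 0 and 2 in WT 30 ppm. At 3 ppm, with the library that chose the members, 0, 2, 2 and 0 were called higher in KO. The Fzd1 exon tile described above holds no start and is not counted. The folate and one-carbon genes had 15 tiles with 0 called and a median difference of 2.12 points. Slc19a1, the reduced folate carrier, was at 3.80% in KO 30 ppm, 1.16% in WT 30 ppm, 5.67% in KO 3 ppm and 1.01% in WT 3 ppm. Gcsh, a subunit of the glycine cleavage system, passed the test just under the minimum difference, at 10.4%, 0.559%, 18.1% and 0% (adjusted p = 0.00546, Fisher's exact test).

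Genes of DNA methylation and demethylation had 13 tiles with 0 called and a median difference of 0.79 points. Mbd4, a glycosylase at methylated CpGs, shares its tile with Ift122 and was at 0%, 2.95%, 0.337% and 0.759%. Lists for other tissues were small: germline genes had 2 tiles (4.64 points), mesenchyme and neural crest genes 1 (4.27 points), and blood and endothelial genes 2 (3.30 points), with 0 called. Their part in the results was not tested.

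Sequence motifs were counted as letters on either strand of the tile. GGGCGG, the GC box, occurred in 89.1% of members and 9.82% of all scored tiles. CCGGAAG, the core bound by ETS factors, occurred in 24.99% and 3.25%, GCATGCGC, the NRF1 core, in 6.68% and 1.36%, and TATAAA in 18.7% and 60.4%. The letters TGACGTCA (3.70% and 0.64%), CACGTG (21.0% and 11.0%) and CCAAT (64.1% and 78.95%) completed the set, and no motif of the set contains another. Members with the ETS core had a median KO minus WT difference at 30 ppm of 1.35 points and 2.48% called, those without it 1.75 points and 4.53%. For the GC box the values were 1.56 points and 3.70% with it, 2.25 points and 6.61% without it. Members with the GC box also held more CpGs, a median of 63 against 51, whereas for the ETS core the medians were 63 and 61.

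The called members differed from the other members in the same features. The 317 had a median of 54 listed CpGs against 62, a GC content of 58.3% against 60.1%, a protein-coding start in 56.2% against 67.8%, and were single tiles in 67.2% against 54.7%. Their median read number in KO 30 ppm was higher, 152 against 122.

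The deposited DMRs of KO versus WT at 30 ppm, called between single libraries, touched few members. Of 4359 autosomal hyper DMRs 3.07% overlapped a member by at least 1 base, and 128 members (1.62%) were touched, where 0.297% of all scored tiles were. Of the 128, 70 were also called per tile. No hypo DMR of the 42 touched a member. Of the 129 hyper and 69 hypo DMRs of diet in KO, 7 and 0 did so, on 7 members (0.0887%, where 0.00617% of all scored tiles were touched by a hyper DMR), 1 of them called per tile. The 7 had a median KO 30 minus KO 3 ppm difference over the whole tile of -1.71 points.

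Single CpGs differed widely within the members. At the 28283 CpGs of members with at least 10 reads in every library, 56.4% were free of methylated reads in KO 30 ppm, 67.4% in WT 30 ppm, 49.6% in KO 3 ppm and 64.7% in WT 3 ppm. A level of 50% or more was found at 4.31%, 1.24%, 3.89% and 1.22% of them. Both KO libraries thus had fewer empty CpGs than WT 30 ppm and more than 3 times its share of highly methylated ones. WT 3 ppm is the library whose low level chose the tiles. The share of empty CpGs also depends on depth, which was greatest in KO 3 ppm. These CpGs are the better covered ones, out of 515346 listed in members.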

How the data were processed

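Whole-genome bisulfite sequencing was done on 1 embryonic brain per group. Per the labels and the study's methods, the authors trimmed reads with Trim Galore 0.6.10, aligned them to GRCm38.p6 with Bismark 0.23.1, removed duplicates and merged strands. As deposited by the authors, a table row holds a CpG's position, its methylated fraction and its read count. DMR positions are the authors' DSS calls between single libraries, and their statistics were not used.

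Methylated reads were recovered as fraction times count and summed per 1 kb tile over the CpGs that reached 5 reads in every library. Tiles were compared with Fisher's exact test, written for the purpose with numba 0.67.0 in Python 3.11.15. Its p-values were checked against SciPy 1.17.1 on a part of the simulated tiles. They were Benjamini-Hochberg adjusted over all scored tiles, and tiles were called at an adjusted p under 0.05 and at least 10 points. The test treats reads as independent and compares libraries. Wilson intervals cover counting error only. The procedure was tested on simulated data with independent reads. Such data do not test dependence between the CpGs of a read or the spread between embryos. GENCODE vM21 basic gave gene positions, and sequence came from the NCBI RefSeq copy of GRCm38.p6. Deposited positions count from 0 and are printed from 1. Samtools 1.23.1 and pysam 0.24.0 read the genome, and pandas 2.3.3, numpy 2.4.6 and matplotlib 3.10.9 were used throughout.

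Members and the 19 gene lists were chosen with earlier results of these data known. Tiles named are the 15 largest gains at 30 ppm, up to 3 per direction for hypo calls and for diet, the extremes of each gene list (all with at least 200 reads per library), and those at the 10% limit. Other named tiles were chosen after their values were seen. Sequence windows were meant to be the 300 bases with most CpGs and were then restricted to bases outside annotated UTRs. The window of Pde10a had no scored CpG and is not printed. A few tiles that these rules name are not reported here. Mean depth over listed autosomal CpGs was 13.2 to 21.2 reads. The alternatives tried were other read minimums, other member limits, unweighted levels, CpGs spaced at least 200 bp apart, thinned libraries, other minimum differences, and leaving out a block of chromosome 10 or strain-variant-like CpGs. Using every listed CpG of each library was added after seeing the data.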

Additional observations from a re-analysis of the deposited data

Results flagged for a closer look

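For 7 of the tiles named, 6 of them by the rules and H2-T23 after its values were seen, KO minus WT had opposite signs at 30 ppm and 3 ppm. The difference between diets was not tested, with 1 library in each group, and WT 3 ppm is the library that chose the tiles. In the H2-T23 tile the KO excess came to 23.1 points under 30 ppm but -0.810 under 3 ppm, the widest gap of the 7. It was -3.19 and 2.73 points at the ribosomal protein gene Rps29, -0.540 and 1.10 at the proteasome gene Psma1 and -0.928 and 2.47 at the neuronal transcription factor gene Neurod1. At the Wnt antagonist gene Sfrp1 it was 1.01 and -0.855 points, at the Wnt ligand gene Wnt5a -0.0903 and 1.77 and at the purine synthesis gene Gart -1.56 and 0.0587. The Rps20 tile, shown for its sequence, also had opposite signs, at -0.0890 and 1.64 points. Apart from H2-T23, each value was under 4 points in size. None of the 6 named by the rules passed Fisher's exact test (adjusted p under 0.05) for KO against WT at 30 or 3 ppm.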

How the results depend on the processing

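The median difference of KO and WT at 30 ppm stayed above 0 in the members under every alternative run. Its size and the number of members called changed. The 317 calls became 127 among members under 5% in WT 3 ppm (2.07% of 6127, background 1.13%), 206 with 50 or more listed CpGs (3.41% of 6035), 158 with at least 10 reads per CpG (4.61% of 3430, background 0.681%), 1 with CpGs at least 200 bp apart (0.0296% of 3377, background 0.0124%, with far fewer reads per tile) and 207 after thinning to the lowest read count (2.62%, background 0.56%). The median difference of 1.65 points became 1.52 with unweighted CpGs, 1.04, 1.44, 2.62, 2.28 and 1.75 under those 5 settings in the same order, 1.34 with at least 3 reads per CpG and 0.916 with every listed CpG. The single lower call became 0 with 10 reads or 200 bp spacing and 10 with every listed CpG (0.127%, background 0.142%). The 4 higher calls for diet in KO became 1 under 5% in WT 3 ppm, 0 with 10 reads, 0 with spacing, 0 after thinning and 31 with every listed CpG. The 1 lower call for diet became 2 with a 5 point minimum (0.0253%, background 0.0275%), 2 with none, 5 with at least 3 reads (0.0633%, background 0.0295%), 23 with every listed CpG, and 0 for members under 5%, with 50 or more CpGs, with 10 reads, with spacing and after thinning. Of 65 alternatives 35 stayed close to the reported value and 30 moved, and the cause was not tested. A reversal could be counted only for the median difference of KO and WT at 30 ppm. Counts have no direction to reverse, and the median diet difference in KO was 0 in the main setting. That diet median took both signs, at -0.0319 points with at least 3 reads per CpG and 0.0457 with every listed CpG. No paired analysis was possible because each group has 1 library and the labels give no shared replicate number, and leaving out a replicate was not possible either. Depth limits single tiles, at a median of 129 reads in WT 30 ppm, and the smallest detectable difference was not measured.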
